A study of Mus musculus with 24 samples.

Results

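The genes described here are 32 factors of the piRNA pathway and the germ granule, chosen by gene symbol: PIWI proteins, Tudor domain proteins, factors that make and mature piRNAs, and nuclear, regulatory and arginine methylation partners. All 32 were among the 23177 genes of the Zbtb16 table, and 31 were among the 21688 genes of the Sox3 table, where Gtsf1l has no row. RNA was sequenced from spermatogonia (SPG) sorted with magnetic beads from testes of mice at postnatal day 7, as THY1+ undifferentiated SPG (uSPG) and KIT+ differentiating SPG (dSPG), with 3 libraries in each of 8 groups, or 24 libraries, and testes of 3 mice pooled for each isolation. Mice of the first set were WT or Zbtb16 null, which carry the luxoid allele. For the RNA libraries the study's methods name WT littermates, while their general statement on controls of null mice names WT and heterozygous littermates. Mice of the second set were WT or Sox3 conditional knockout (cKO), made on a B6 background by crossing a floxed Sox3 allele with Cre under the promoter of Ddx4, which is itself 1 of the 32 genes. The study's methods describe this knockout as targeting male germ cells, and the allele in any somatic cells of a cKO fraction was not tested.

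piRNAs are small RNAs that guide PIWI proteins, a germline branch of the Argonaute family, to transcripts of transposons. Long precursors are cut at the outer mitochondrial membrane, trimmed, methylated at their end and loaded onto PIWI proteins, and Tudor domain proteins bind methylated arginines of the PIWI proteins and hold the machinery together in cytoplasmic granules called nuage, and later in the chromatoid body of spermatids. In fetal male germ cells the nuclear arm of the pathway directs DNA methylation of transposons, and from the pachytene stage of meiosis a further wave of piRNAs is made under the transcription factor MYBL1 (A-MYB). SPG at postnatal day 7 lie between these stages.

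The targeted genes were as labelled. Zbtb16 RNA was at 52.1 ± 8.93 FPKM (SD, n = 3) in WT THY1+ uSPG and at 17.1 ± 1.33 in null uSPG, and Sox3 was between 6.28 and 24.4 FPKM in the WT libraries of its set and at 0 to 0.082 FPKM in the cKO libraries. The sorting markers fitted the labels of the Zbtb16 set, with Thy1 at 3.29 to 4.67 FPKM in THY1+ libraries and at 0.156 to 0.666 in KIT+ libraries. In the Sox3 set they went against the labels of the WT libraries: Thy1 was at 0.213 to 0.254 FPKM in WT libraries labelled THY1+ and at 3.59 to 4.06 in those labelled KIT+, with Kit the other way round. Those libraries were not regrouped, and the genotype effect of that set is given as the mean over both fractions, which does not depend on which WT group is which. The size of the steps between low FPKM values gave an estimated 25.94 to 35.16 M reads for a Zbtb16 library, 28.24 to 31.88 M for replicate 1 of the Sox3 groups and 10.99 to 14.91 M for replicates 2 and 3.

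The promoters of the genes that carry the main differences show what letters lie around their starts. RefSeq (build GRCm38.p6) gave a 300-base window, 250 bases before to 50 after a start, for 25 of the 32 genes, 34 windows in all, and none was at hand for Pnldc1, Morc1, Mybl1, Piwil2, Tdrd6, Rnf17 or Tex15. The windows of Piwil1 (chr5:128735996-128736295, plus strand), Ddx25 (chr9:35558421-35558720, minus strand) and Tdrd5 (chr1:156303299-156303598, minus strand), whose RNA rose in null uSPG, and of Exd1 (chr2:119547578-119547877, minus strand), whose RNA fell in null dSPG, are printed 5′ to 3′ along the transcript, with matches to AACNG and CACGTG on either strand in capitals.
Piwil1: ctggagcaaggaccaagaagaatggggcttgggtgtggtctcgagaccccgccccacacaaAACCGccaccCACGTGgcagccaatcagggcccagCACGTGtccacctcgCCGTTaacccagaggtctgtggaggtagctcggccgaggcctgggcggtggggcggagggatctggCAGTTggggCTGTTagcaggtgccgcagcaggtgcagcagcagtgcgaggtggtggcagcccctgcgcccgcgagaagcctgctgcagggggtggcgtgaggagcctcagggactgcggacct
Ddx25: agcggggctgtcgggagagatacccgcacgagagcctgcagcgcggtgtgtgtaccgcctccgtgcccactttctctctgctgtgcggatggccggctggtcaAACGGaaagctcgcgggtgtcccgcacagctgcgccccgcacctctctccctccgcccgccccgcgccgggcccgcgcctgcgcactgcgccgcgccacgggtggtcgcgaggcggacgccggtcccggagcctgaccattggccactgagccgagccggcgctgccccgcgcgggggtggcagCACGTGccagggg
Tdrd5: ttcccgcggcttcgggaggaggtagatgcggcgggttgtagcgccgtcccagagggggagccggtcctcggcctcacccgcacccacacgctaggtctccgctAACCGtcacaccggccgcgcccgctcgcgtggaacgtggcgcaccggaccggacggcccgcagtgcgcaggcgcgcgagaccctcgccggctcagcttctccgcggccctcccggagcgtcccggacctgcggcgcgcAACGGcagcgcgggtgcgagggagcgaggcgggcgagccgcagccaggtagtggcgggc
Exd1: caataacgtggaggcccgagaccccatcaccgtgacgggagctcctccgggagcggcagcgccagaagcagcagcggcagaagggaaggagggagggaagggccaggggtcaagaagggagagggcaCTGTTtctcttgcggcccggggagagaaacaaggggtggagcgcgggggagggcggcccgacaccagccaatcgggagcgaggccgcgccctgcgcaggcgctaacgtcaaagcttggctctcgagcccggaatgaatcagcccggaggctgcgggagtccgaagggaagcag
The E-box letters CACGTG, which read the same on both strands, stood in 14 of the 34 windows (41.2%), against 2349 of 32851 windows (7.15%) of all genes. They occur at 2 places in the Piwil1 window and at 1 place in that of Ddx25, and not in those of Tdrd5 and Exd1. Neither window of Piwil4, which also rose in null uSPG but is not printed here, holds them. AACGG, a core of the motif of the MYB family, was in 12 of the 34 windows (35.3%) and in 17.4% of all windows, and the looser AACNG, which includes AACGG, was in 29 of the 34 (85.3%) and in 80.3% of all. The Piwil4 windows hold AACNG but not AACGG. Several windows of 1 gene overlap, so the 34 are not independent, and a match of letters is not a bound site.

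In WT uSPG of the Zbtb16 set the 32 genes were well expressed as a group. Their median was 31.4 FPKM, a level per transcript length, against 3.68 FPKM over all genes of the table, and 91.4% of the genes were below that median. Of these genes 30 reached 1 FPKM, 25 reached 10 and 6 reached 100. Mael, which encodes a nuage protein, was highest at 242 ± 32.8 FPKM, followed by Ddx4, the RNA helicase VASA, at 189 ± 12.4, and Fkbp6, a co-chaperone of PIWI loading, with 152 to 165. The PIWI genes lay far apart. Piwil2 (MILI) had 95.1, 98.0 and 72.9 FPKM, Piwil4 (MIWI2), the nuclear PIWI protein of fetal germ cells, had 8.82, 7.35 and 7.14, and Piwil1 (MIWI), the PIWI protein of late spermatocytes and spermatids, had 4.37, 4.0 and 3.85. Tdrd6, a chromatoid body protein, and Gtsf1l, a relative of the PIWI cofactor Gtsf1, stayed below 1 FPKM in all 12 libraries of the set.

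The main comparison asked what loss of ZBTB16 does to these genes in uSPG. In null THY1+ uSPG 5 of the 32 genes rose and none fell: Piwil1, Tdrd5, Ddx25, Piwil4 and Morc1. That is against 3.98% of the 22374 genes tested that passed in either direction and 2.71% that rose and 1.26% that fell (limma, adjusted p at most 0.05 and at least 1.5-fold). The fitted change was above 0 for 30 of the 32, and the median was 0.36 on the log2 scale, against -0.03 over all genes tested. The exceptions were Exd1, an RNA-binding partner of TDRD12, at -0.27 ± 0.13 (SE) and Wdr77, the partner of the methyltransferase PRMT5, at -0.02 ± 0.10.

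Of the PIWI genes, Piwil1 (chr5:128702524-128755474, plus strand, GRCm38) had 8.52, 9.55 and 7.61 FPKM in the null uSPG libraries, all above the 3.85 to 4.37 of WT. The fitted log2 change was 1.05 ± 0.12 (SE), or 2.07-fold, with an adjusted p of 0.00124. Piwil4 (chr9:14696230-14740733, minus strand) had 15.8, 14.1 and 12.6 FPKM in null uSPG against 7.14 to 8.82 in WT, a log2 change of 0.86 ± 0.13 with an adjusted p of 0.00466. Piwil2 had 104, 117 and 93.1 FPKM, within or above the WT range of 72.9 to 98.0, and did not pass (0.25 ± 0.15, adjusted p = 0.343).

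Among the Tudor domain genes Tdrd5 (chr1:156255296-156303664, minus strand), needed for the processing of pachytene piRNAs, had 36.9, 34.7 and 30.1 FPKM in null uSPG against 17.9, 18.6 and 16.7 in WT. The groups were far apart, with a log2 change of 0.93 ± 0.13 and an adjusted p of 0.00311. Tdrd5 is also named by the study as raised in these libraries, so its direction is no independent evidence. Tdrd6 (chr17:43615335-43630299, minus strand) was at 0.774, 0.915 and 0.552 FPKM in null uSPG against 0.433, 0.410 and 0.316, at a level near the added 0.1 FPKM. Its log2 change of 0.79 ± 0.21 had an adjusted p of 0.0501, and with the replicate number as a block it passed (adjusted p = 0.0118), which made 6 of 32 against 8.85% of all genes in that fit. All 10 Tudor domain genes had a fitted change above 0, from 0.08 in Tdrd3 to the 0.93 of Tdrd5, with a median of 0.40. Stk31, a kinase with a Tudor domain, was at 146, 138 and 145 FPKM in null against 97.8, 96.9 and 105 in WT, and Tdrd7, a chromatoid body protein, was at 42.2, 43.4 and 34.4 against 32.3, 29.9 and 24.9. Both had an adjusted p under 0.05 with less than 1.5-fold change (0.52 ± 0.09, adjusted p = 0.0126, and 0.46 ± 0.12, adjusted p = 0.0467). Tdrd1, Tdrd9, Tdrd12, Tdrkh and Rnf17 had changes of 0.09 to 0.44, with adjusted p from 0.14 to 0.809.

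Of the 12 processing factors and cofactors, Ddx25 (chr9:35536647-35558528, minus strand), a testis RNA helicase found in the chromatoid body, rose from 48.1, 41.4 and 45.6 FPKM in WT to 92.1, 76.3 and 81.1 in null uSPG. Its log2 change was 0.88 ± 0.13 with an adjusted p of 0.00466. The median of the 12 was 0.30. Gtsf1 was at 59.1, 50.01 and 58.2 FPKM against 35.5, 36.6 and 41.7 (0.55 ± 0.13, adjusted p = 0.032), and Henmt1, the methyltransferase that caps the end of piRNAs, was at 15.7, 15.6 and 14.7 against 12.6, 10.6 and 11.2 (0.42 ± 0.09, adjusted p = 0.03). Both stayed below 1.5-fold. For the mitochondrial endonuclease Pld6 the change was 0.11 ± 0.17, and for Mov10l1, the helicase of primary processing, it was 0.23 ± 0.10. Asz1, Gtsf1l, Pnldc1, Fkbp6, Mael and Ddx4 had changes of 0.15 to 0.46, with adjusted p from 0.0543 to 0.768.

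Of the 5 nuclear and regulatory genes Morc1 (chr16:48431237-48630900, plus strand), a nuclear ATPase needed for transposon silencing, had 110, 94.9 and 112 FPKM in null uSPG against 68.5, 59.2 and 74.7 in WT. The log2 change was 0.65 ± 0.13 with an adjusted p of 0.0205. This call was lost without WT replicate 1 (adjusted p = 0.0665) or 2 (0.0838) and without null replicate 1 (0.0913) or 3 (0.08). The other members of this group, Mybl1, Btbd18, which encodes an activator of pachytene piRNA loci, Tex15, a nuclear partner of MILI, and Tex19.1, had fitted changes between 0.37 and 0.51 and did not pass. Prmt5, which methylates the arginines that Tudor domains bind, was at 0.21 ± 0.09 (adjusted p = 0.182).

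**Figure D1:**
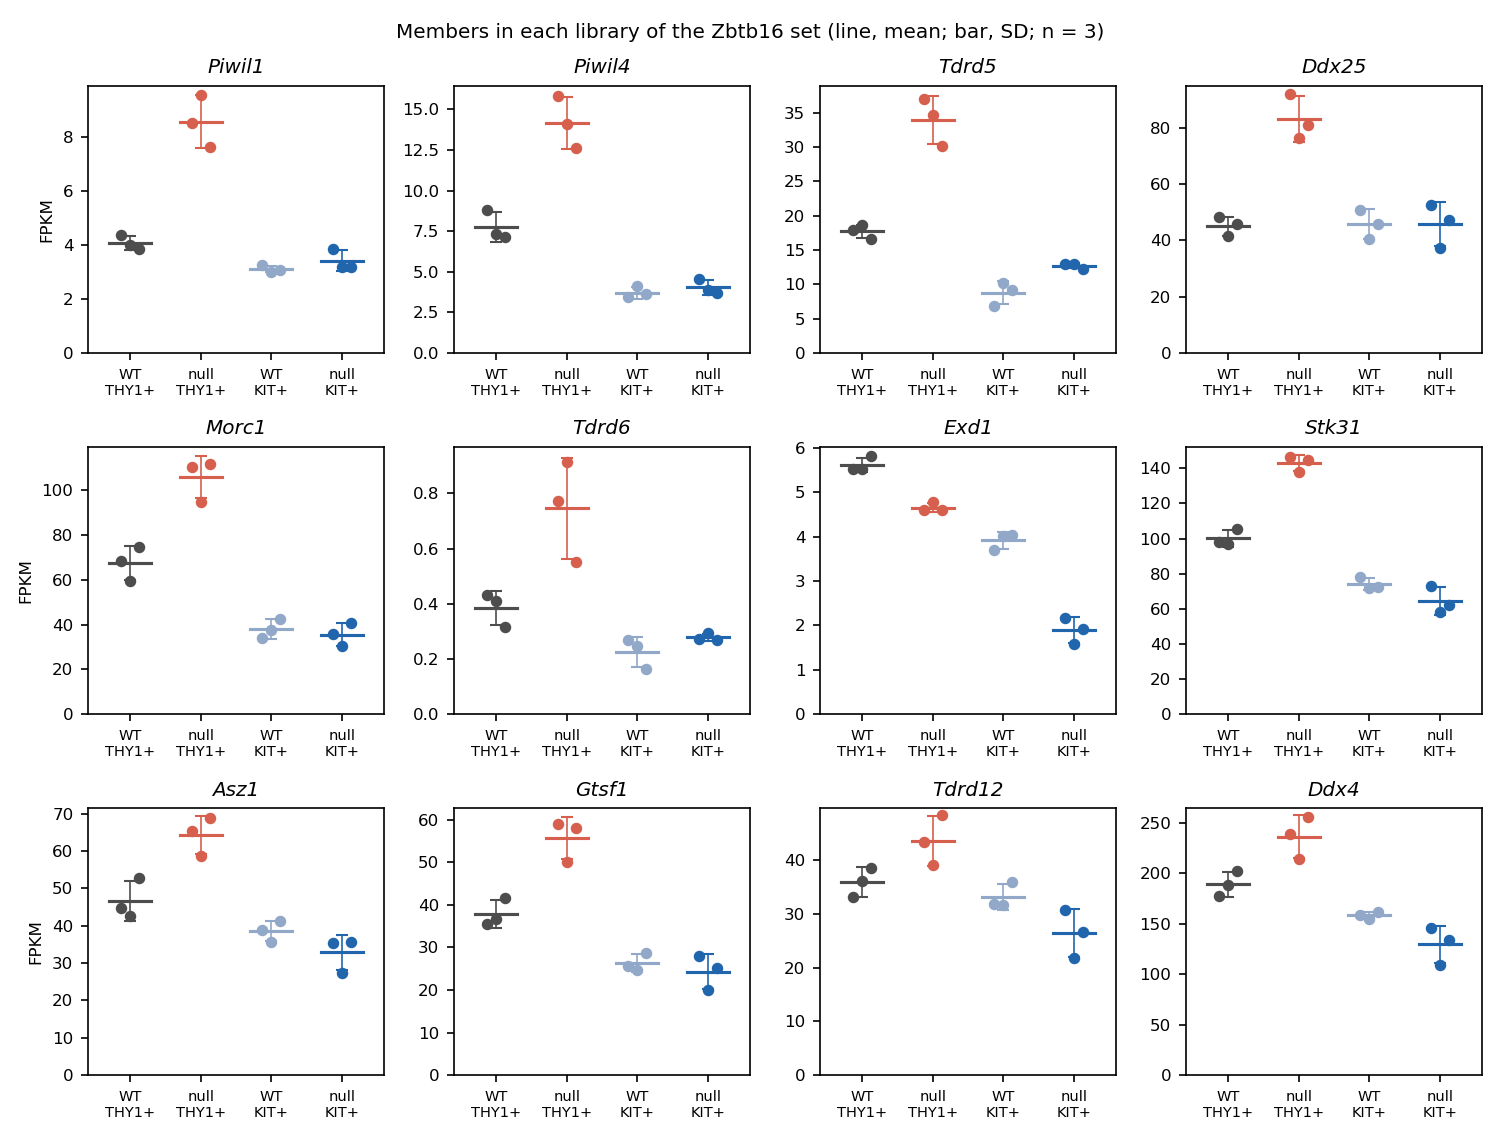
FPKM of 12 of the genes in the 12 libraries of the Zbtb16 set, each point a library, with lines at the group means and bars for the SD (n = 3). The null THY1+ points stand above those of every other group for all genes shown except Exd1. The null KIT+ points of Exd1 (1.57 to 2.17 FPKM) lie below all others. How many of all genes share these patterns is not given here.

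Genes of other cells moved in the same comparison. Germ cell genes outside the 32 had a median log2 change of 0.23, with 9 of 10 above 0 and 1 called, and meiosis genes had 0.31, with 11 of 12 above 0 and none called. Markers of somatic cells were below 0 for 8 of 8 Leydig cell genes (median -0.73), 10 of 10 Sertoli cell genes (-0.68), 9 of 10 peritubular and stromal genes (-0.60), 9 of 9 macrophage genes (-0.76, 1 called) and 6 of 8 T cell genes (-0.67, 1 called), and 5 of 8 endothelial genes (-0.44). Markers of undifferentiated SPG had a median of -0.03, with 2 of 10 lower, and those of differentiating SPG had -0.07, with none called. With the replicate block more of them were called: 3 of 12 meiosis genes higher, and 5 of 8 Leydig, 5 of 10 Sertoli, 2 of 10 peritubular and stromal, 3 of 9 macrophage, 3 of 8 T cell and 3 of 10 undifferentiated SPG genes lower, with 1 of 8 endothelial genes higher. What part these shifts have in the changes of the 32 genes was not tested. The summed FPKM of the macrophage genes ran from 876 to 1008 in WT uSPG and from 405 to 771 in null uSPG, and none of the genes of these lists was at 0 in a whole group. In bulk RNA fewer cells of a type cannot be told apart from less RNA per cell. When each library was centred on the germ cell genes, the median over all genes moved from -0.03 to -0.25 and that of the 32 genes to 0.14, with 24 of 32 above 0. Ddx25 was then the 1 gene still called (0.66 ± 0.10, adjusted p = 0.0113), against 1.33% of all genes. Piwil1 was at 0.82 ± 0.18 (adjusted p = 0.0558), Tdrd5 at 0.70 ± 0.22 (0.13), Piwil4 at 0.63 ± 0.20 (0.132) and Morc1 at 0.42 ± 0.14 (0.149). The share of all calls that were higher went from 68.2% to 49.2% with this centring.

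In KIT+ dSPG the null and WT libraries differed in 1 of the 32 genes, against 0.259% of all genes tested, with 0.067% of all genes lower. Exd1 (chr2:119516505-119547627, minus strand) fell from 3.70, 4.02 and 4.05 FPKM in WT to 2.17, 1.57 and 1.93 in null dSPG, with no overlap. The log2 change was -1.02 ± 0.13, with an adjusted p of 0.0071. The direction was the same in uSPG, where null libraries were at 4.59, 4.78 and 4.60 FPKM against 5.51, 5.52 and 5.81 in WT, although that difference did not pass (adjusted p = 0.228). In a fit of the 6 KIT+ libraries alone, in which 2 genes of the whole table passed, the adjusted p of Exd1 was 0.283, and centring on germ cell genes gave -0.75 (0.122).

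The other genes showed no call in dSPG. Their fitted changes ran from -0.79 ± 0.27 in Gtsf1l (0.207, 0.180 and 0.224 FPKM against 0.611, 0.381 and 0.318) to 0.55 ± 0.13 in Tdrd5, and 23 of 32 were below 0, with a median of -0.13 against 0.01 over all genes. Tdrd5 was at 12.9, 12.9 and 12.3 FPKM in null dSPG against 6.91, 10.2 and 9.14 in WT, with all null libraries higher (adjusted p = 0.137). Piwil1, Piwil4 and Ddx25, which rose in uSPG, had changes of 0.13 ± 0.12, 0.12 ± 0.13 and -0.01 ± 0.13 in dSPG, with overlapping libraries. Piwil1 had 3.86, 3.18 and 3.20 FPKM in null dSPG against 3.25, 3.0 and 3.08, and Ddx25 had 52.6, 37.4 and 47.2 against 50.9, 40.5 and 45.8. Germ cell genes outside the 32 had a median of -0.29 here, with 9 of 10 below 0, while Leydig (0.60), peritubular and stromal (0.66), Sertoli (0.38) and endothelial (0.46) markers had medians above 0, and macrophage (0.06) and T cell (-0.16) markers lay nearer to 0. Meiosis genes had a median of -0.22, with 10 of 12 below 0, markers of differentiating SPG had -0.24 and those of undifferentiated SPG 0.08. None of these markers was called without the block. The replicate block called 1 of 8 Leydig, 1 of 10 peritubular and stromal and 1 of 10 undifferentiated SPG genes as higher, against 2.29% of all genes in that fit. It called 2 of 10 undifferentiated and 1 of 7 differentiating SPG genes as lower. With centring on germ cell genes the median of the 32 was 0.14, on the other side of 0, and that over all genes was 0.28.

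**Figure D2:**
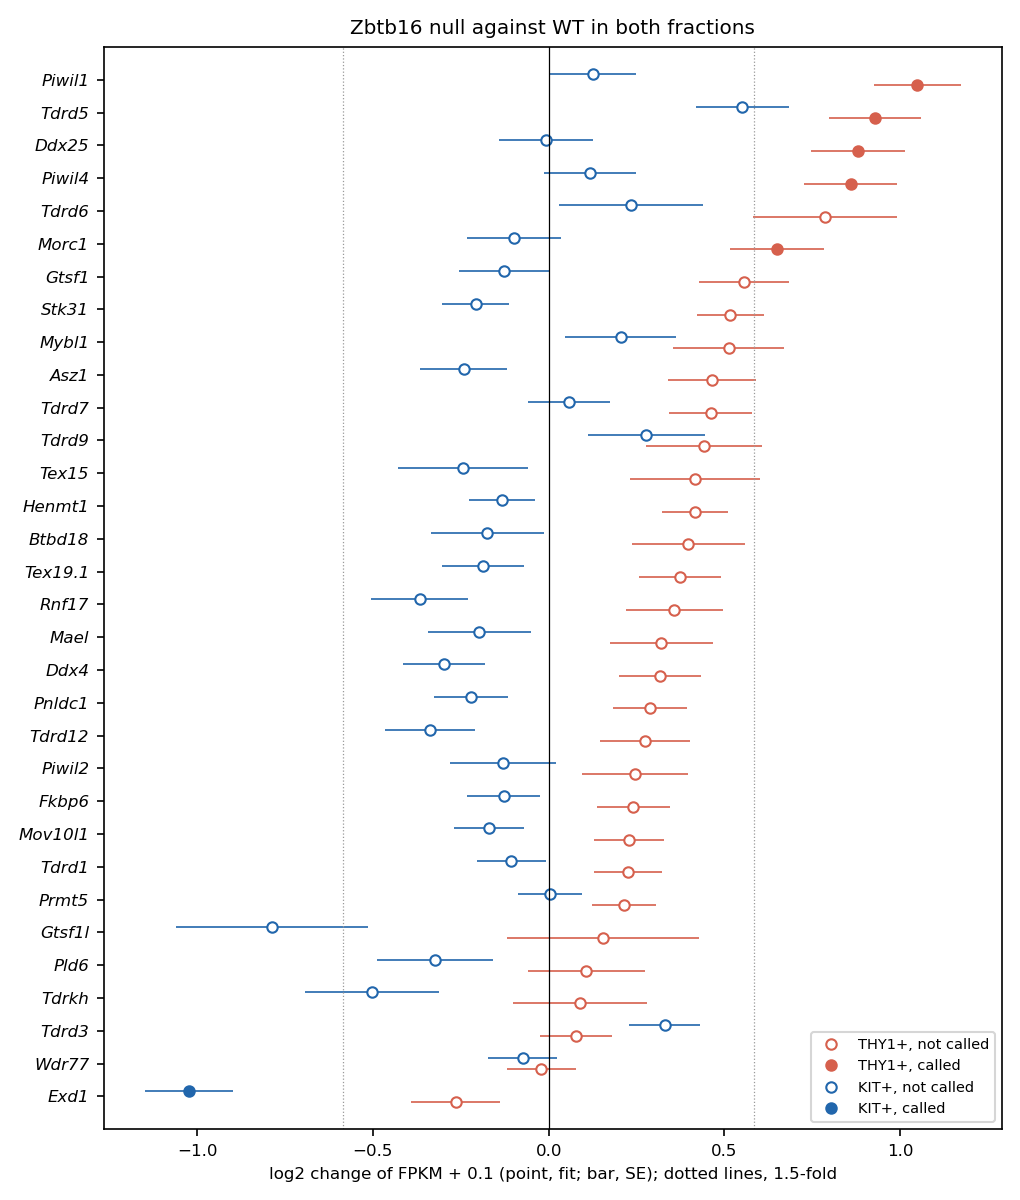
Fitted log2 change of null against WT for each of the 32 genes in THY1+ uSPG (red) and KIT+ dSPG (blue), with bars for the SE and filled points for calls. The THY1+ points lie above 0 for 30 genes, while 23 of the KIT+ points lie below 0, and Exd1 is the 1 gene called in KIT+.

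Whether the effect of the null genotype differed between the fractions was tested as an interaction, the change in KIT+ less that in THY1+. None of the 32 genes passed, against 0.0313% of all genes, or 7 genes. In this limma fit 22 of the 32 had an unadjusted p under 0.05, as had 5014 of the 22374 genes. The fitted difference was below 0 for 31 of the 32, with Tdrd3 at 0.25, and the median was -0.56 against 0.00 over all genes. Centred on germ cell genes the median was -0.06, with 12 above 0, and the median over all genes was 0.50. The germ cell genes outside the 32 had a median interaction of -0.53, with 10 of 10 below 0, and meiosis genes had -0.59, with 12 of 12 below 0. Leydig (1.35) and Sertoli (1.18) markers were all above 0. The part of these shifts in the values of the 32 genes was not tested. The largest differences among genes above 1 FPKM were -0.92 ± 0.18 in Piwil1 (adjusted p = 0.0906), -0.89 ± 0.19 in Ddx25 (0.093), -0.76 ± 0.18 in Exd1 (0.0938), -0.75 ± 0.19 in Morc1 (0.0938) and -0.74 ± 0.19 in Piwil4 (0.0938). Stk31 was at -0.72 ± 0.13 (0.0906), Asz1, a mitochondrial scaffold of piRNA processing, at -0.71 ± 0.18 (0.0938) and Gtsf1 at -0.68 ± 0.18 (0.0944). Leaving out null KIT+ replicate 1 brought 12 of the 32 genes past the threshold, among 867 genes in all. Asz1 had 44.7, 42.6 and 52.8 FPKM in WT uSPG and 65.3, 58.8 and 68.8 in null uSPG, and in dSPG it had 38.9, 35.7 and 41.2 in WT and 35.4, 27.3 and 35.7 in null. In dSPG Stk31 had 78.1, 71.7 and 72.6 FPKM in WT and 73.1, 57.9 and 62.4 in null, and Gtsf1 had 25.6, 24.7 and 28.8 in WT and 27.9, 19.9 and 25.1 in null.

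Between the WT fractions 3 of the 32 genes were lower in KIT+ dSPG and none was higher, against 21.2% of all genes that passed and 14% that were lower. Piwil4 had 3.42, 4.11 and 3.61 FPKM in dSPG, below every uSPG library, a log2 change of -1.04 ± 0.13 (adjusted p = 0.000154). Tdrd5 (-1.03 ± 0.13, adjusted p = 0.000177) and Morc1, with 33.8, 37.5 and 42.5 FPKM (-0.83 ± 0.13, adjusted p = 0.000837), were also lower. These 3 are among the 5 that rose in null uSPG, and both comparisons share the WT uSPG libraries. The remaining 29 had fitted changes from -0.59 in Tdrd6 to 0.42 in Pld6, and the median of the 32 was -0.22 against -0.03 over all genes.

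Between the null fractions 21 of the 32 genes were lower in dSPG and none was higher, against 29.2% of all genes, with 16% of all genes lower. The median was -0.78 against -0.05 over all genes, and 31 of 32 were below 0. The largest falls were in Piwil4 (-1.79 ± 0.13), Morc1 (-1.58 ± 0.13), Tdrd5 (-1.40 ± 0.13), Piwil1 (-1.30 ± 0.12) and Exd1 (-1.27 ± 0.13). Null dSPG held 3.70 to 4.53 FPKM of Piwil4 and 30.3 to 40.7 FPKM of Morc1, each overlapping the WT dSPG range, while null uSPG held 12.6 to 15.8 and 94.9 to 112. Ddx25 had a change of 0.02 ± 0.13 between the WT fractions and fell between the null ones (-0.87 ± 0.13, adjusted p = 0.000418). Tdrd3, Pld6, Wdr77, Prmt5 and Tdrd9 had the smallest changes, from -0.24 to 0.06. Germ cell genes outside the 32 had a median of 0.03 between the WT fractions, with none called, and of -0.41 between the null fractions, with 4 of 10 lower. Leydig markers were higher in dSPG of both genotypes (8 of 8 called, medians 3.88 and 5.28) and macrophage markers lower (9 of 9, -8.33 and -7.18). Centred on germ cell genes, 8 of the 32 were still called lower between the null fractions (Piwil4, Morc1, Tdrd5, Piwil1, Exd1, Gtsf1, Stk31 and Gtsf1l), against 36.8% of all genes called and 6.85% called lower on that scale. The median was -0.32 against 0.41 over all genes, and the share of all calls that were higher went from 45.2% to 81.4%. Between the WT fractions Piwil4, Tdrd5 and Morc1 were called with that centring too, against 15.9% of all genes and 10.8% lower.

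**Figure D3:**
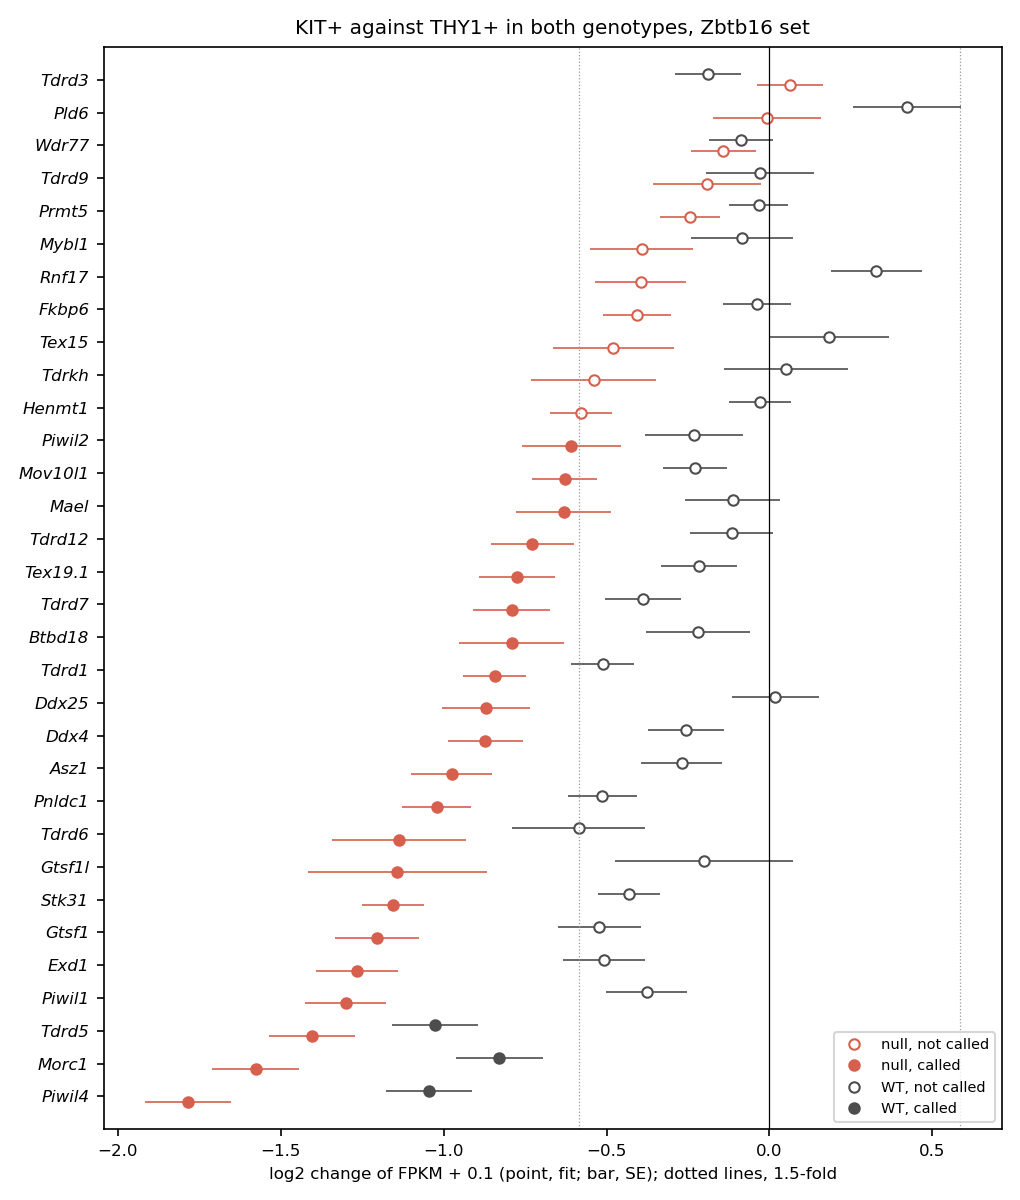
Fitted log2 change of KIT+ dSPG against THY1+ uSPG in null mice (red) and WT mice (grey), with bars for the SE and filled points for calls. Filled points number 21 in the null and 3 in WT, and Piwil4, Morc1 and Tdrd5 lie lowest in both genotypes.

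In the Sox3 set the question was whether loss of SOX3 moves the same genes. In the effect averaged over both labelled fractions 1 of 31 genes, Ddx25, fell and none rose, against 10.3% of all 21212 genes tested, with 2.83% of all genes lower. Ddx25 had 50.7 to 52.2 FPKM in WT libraries labelled THY1+ and 44.1 to 54.1 in those labelled KIT+, while the cKO libraries had 31.1, 38.7 and 34.8 in THY1+ and 25.3, 31.1 and 31.7 in KIT+. All 6 cKO libraries were below all 6 WT libraries. Fkbp6, Henmt1, Mael, Pld6 and Rnf17 showed the same separation, and how many of all genes share it is not given here. The log2 change of Ddx25 was -0.67 ± 0.08 with an adjusted p of 0.00184. Without replicate 1, on the shallower replicates alone, it was -0.56 (adjusted p = 0.0438), just short of 1.5-fold.

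Most other genes of the pathway lay on the same side. The change was below 0 for 27 of 31, with a median of -0.34 against 0.02 over all genes. Fkbp6 was at -0.58 ± 0.10 (adjusted p = 0.00381), just short of 1.5-fold, Btbd18 at -0.53 ± 0.10 (0.00483), Gtsf1 at -0.52 ± 0.15 (0.0288), Henmt1 at -0.52 ± 0.10 (0.00514), and Pnldc1, the trimmer of piRNA ends, at -0.48 ± 0.07 (0.00263). The PIWI genes were at -0.32 ± 0.14 in Piwil2, -0.0021 ± 0.17 in Piwil1 and 0.09 ± 0.16 in Piwil4, and Tdrd5 was at -0.13 ± 0.10, and none of these passed. On the other side of 0 were Mybl1 at 0.42 ± 0.14 (adjusted p = 0.046) and Tdrd3, a Tudor domain protein expressed in many tissues, at 0.35 ± 0.08 (0.0136), both below 1.5-fold. Mybl1 had 1.60 to 2.76 FPKM in WT libraries labelled THY1+, 2.86 to 3.34 in those labelled KIT+, 2.80 to 3.80 in cKO THY1+ and 3.71 to 3.81 in cKO KIT+ libraries. Ddx4, whose promoter drives Cre, was at -0.35 ± 0.07 (0.00662).

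Germ cell genes outside the 32 had a median of -0.40 in this comparison, with 10 of 10 below 0 and 2 called, while Leydig (0.84, 5 of 8 called), Sertoli (0.62, 4 of 9), endothelial (0.52, 3 of 8) and peritubular and stromal (0.47, 2 of 10) markers had medians above 0, and macrophage (0.07) and T cell (0.05) markers had none called. Meiosis genes had a median of -0.47 (2 of 12 lower), differentiating SPG markers -0.54 (3 of 7 lower) and undifferentiated SPG markers 0.35 (none called). What part these shifts have in the changes of the 31 genes was not tested. The summed FPKM of the Leydig genes was 2544 to 5026 in cKO KIT+ libraries and 1270 to 2052 in the WT libraries labelled THY1+, which carry the KIT+ marker. Centred on the germ cell genes, the median of the 31 genes was 0.03 and that over all genes was 0.40. Ddx25 was then at -0.30 (adjusted p = 0.026), below 1.5-fold, and Mybl1 (0.79, adjusted p = 0.00245) and Tdrd3 (0.72, 0.00113) were called as higher, which is 2 of 31 against 29.1% of all genes called and 28.7% called higher on that scale. The share of all calls that were higher went from 72.6% to 98.5%.

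**Figure D4:**
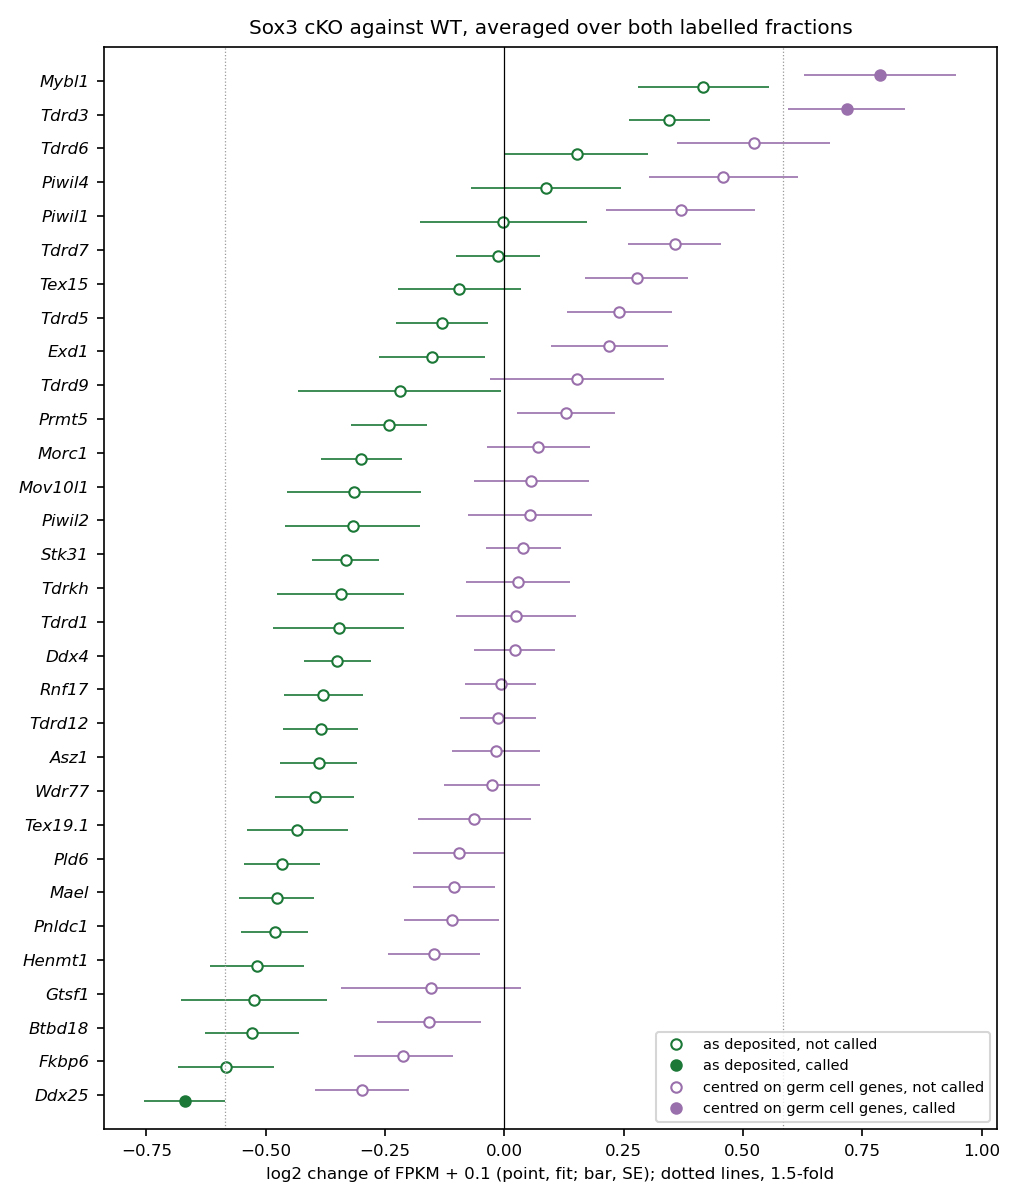
Fitted log2 change of cKO against WT averaged over both labelled fractions for 31 genes, as deposited (green) and after centring each library on germ cell genes outside the list (purple), with bars for the SE and filled points for calls. Ddx25 is lowest on both scales, at -0.67 and -0.30, and Mybl1 and Tdrd3 are highest.

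The fractions of the cKO mice, whose markers fit their labels, gave 11 of 31 genes lower in KIT+ libraries and none higher, against 22.7% of all genes, with 12.2% of all genes lower. Piwil4 (-1.21 ± 0.22), Piwil1 (-0.97 ± 0.25), Tdrd5 (-0.90 ± 0.14), Morc1 (-0.90 ± 0.12) and Exd1 (-0.78 ± 0.16) fell most, and the median was -0.45. Between the WT libraries as labelled, Piwil4 (1.06 ± 0.22), Morc1 (0.98 ± 0.12) and Tdrd5 (0.95 ± 0.14) were higher in those labelled KIT+, the ones that carry Thy1, against 19.7% of all genes, with 13.1% of all genes higher. Without WT replicate 3 labelled THY1+ 5 of the 31 genes were called there, while the 19.7% is from the full fit.

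Genotype comparisons by the labels set libraries with unlike sorting markers side by side. For labels THY1+ they gave 4 genes higher (Piwil4, Tdrd5, Tdrd6 and Morc1) and Pld6 lower in cKO, against 29.1% of all genes, and for labels KIT+ they gave 19 lower, against 25.1%, with 12.6% of all genes lower. Across labels, where Thy1 and Kit lay close together, cKO THY1+ against WT labelled KIT+ gave none of 31 at this threshold, against 0.0707% of all genes. The median of the 31 was -0.19, against 0.01 over all genes. The replicate numbers pair these groups by the correlation check, and with the block none of the 31 was called either, against 0.137% of all genes. cKO KIT+ against WT labelled THY1+ gave 10, against 17% (4.57% lower and 12.4% higher). Ddx25 (-0.82 ± 0.12), Fkbp6, Pld6, Btbd18, Henmt1, Gtsf1, Mael and Pnldc1 were lower and Mybl1 (0.82 ± 0.19) and Tdrd3 (0.66 ± 0.12) higher. On replicates 2 and 3 alone 2 were called, both lower, while the 17% is from the full fit. Ddx25 was lower in every cKO library under each of these pairings, as were Fkbp6, Henmt1, Mael, Pld6 and Rnf17.

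**Figure D5:**
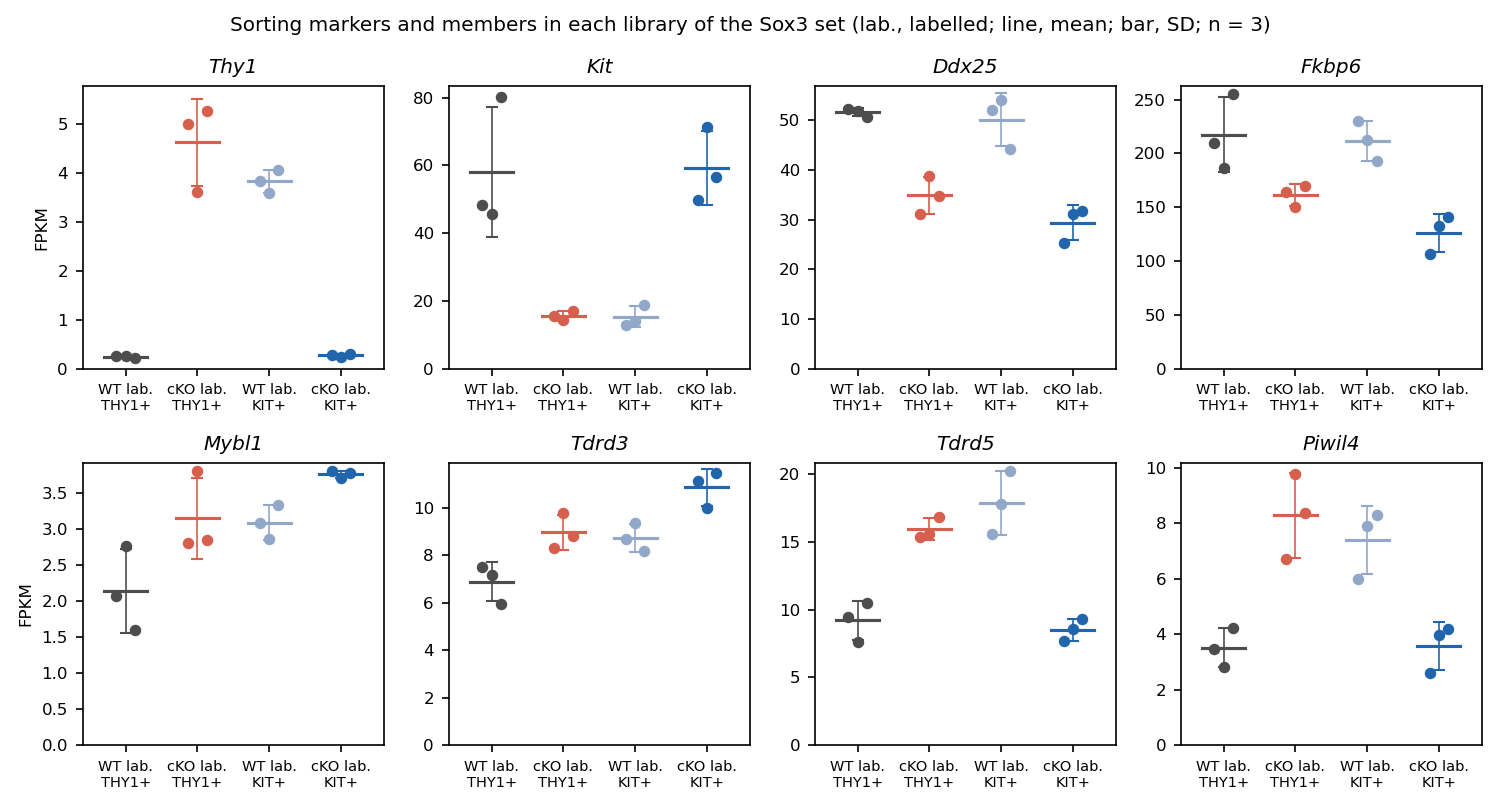
FPKM of the sorting markers Thy1 and Kit and of 6 of the genes in the 12 libraries of the Sox3 set, grouped by label, with lines at the group means and bars for the SD (n = 3). Thy1 is at 0.213 to 0.254 in the WT libraries labelled THY1+, and Ddx25 and Fkbp6 are lower in each cKO library than in each WT library.

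Of 19 further piRNA and granule genes measured outside the 32, 1 rose and none fell in null uSPG, against 3.98% of all genes called. The gene that rose was Spocd1, a nuclear partner of MIWI2 needed for piRNA-directed DNA methylation, with a log2 change of 1.22 ± 0.17 and an adjusted p of 0.00282. In null dSPG none of the 19 was called, against 0.259% of all genes, but with the replicate block Spocd1 was (0.83 ± 0.16, adjusted p = 0.036), against 2.29%. Spocd1 and Nanos3, an RNA-binding protein of early germ cells, were the 2 of the 19 called between the WT fractions, both lower in dSPG (-1.39 ± 0.17 and -1.61 ± 0.19), against 21.2% of all genes. The medians of the 19 were 0.06 in null uSPG and 0.05 in null dSPG. In the averaged Sox3 effect Ago2, an Argonaute protein of the siRNA and miRNA pathways, was the 1 called, higher at 0.59 ± 0.15 (adjusted p = 0.0158), against 10.3% of all genes, with a median of -0.01.

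The 32 genes lie on 17 chromosomes, and exons of 6 of them share bases with exons of another annotated gene on the opposite strand (GENCODE, GRCm38). The largest of these shares is 36.7% of the exon bases of Tdrkh, shared with Oaz3, and for Piwil4 and Tdrd5 it is 2.54% each. The strand used in counting is not given in the sources used here, so values of Tdrkh are uncertain in that respect. Wdr77 shares 28.7% of its exon bases with Gm42890 on the same strand, where strand cannot separate the reads, so its values are uncertain whatever the setting. The alignment let reads map to many positions, so values of genes with a close copy, such as Tex19.1 and Gtsf1l, are uncertain too.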

How the data were processed

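The authors sequenced stranded libraries depleted of ribosomal RNA as single reads, aligned them to mm10 with Novoalign and deposited FPKM per gene (fragments scaled to transcript length and library size) in 1 table for each set. The labels also name DESeq2, which needs counts, so it was not used here. All 24 libraries were used, by the groups of the labels, and 0 columns of per-sample values were left out. In R 4.3.3, limma 3.58.1 was fitted to log2(FPKM + 0.1) in each table over genes with a mean of at least 0.1 FPKM, with a mean for each of the 4 groups and a moderated variance with trend and robust options. Tests were two-sided, with Benjamini-Hochberg adjustment over all genes tested, and genes were called at an adjusted p up to 0.05 with 1.5-fold or larger change on the log2(FPKM + 0.1) scale, which understates changes of low genes. The ± beside a log2 change is its SE.

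The replicate numbers were checked by correlating deviations from the group means over genes. Every pair was above 0.1 for null against WT in THY1+ (0.133 to 0.475) and KIT+ (0.362 to 0.52), between the null fractions (0.315 to 0.519), and for Sox3 cKO THY1+ against WT labelled KIT+ (0.125 to 0.268), so these were taken as paired. For them the block is given where it changes a call of the 32 genes or a list count the text prints, or moves the count over all genes by over 1.5 times. Replicates are separate isolations by the methods, and p-values measure the spread between them.

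The 32 genes and all lists were chosen with earlier results of these data known. Named in full are genes called for genotype or interaction with or without the block (at most 8 of each by p), the called genes of the averaged Sox3 effect and those called between the WT fractions. The marker lists cover germ, undifferentiated and differentiating SPG, meiosis, Sertoli, Leydig, peritubular and stromal, endothelial, macrophage and T cells. Depth was estimated from FPKM steps, of which 87.4% to 91.5% of low values were within 0.1 of a whole read. Sequences are from RefSeq and gene positions from GENCODE. The fits were run on simulated data for a single comparison of each set, with noise drawn independently in each library. That setting lacks the correlation between equal replicate numbers seen in the data, and its outcome is not given here.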

Additional observations from a re-analysis of the deposited data

Results flagged for a closer look

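Ddx4 and Tdrd12 were flagged because every null library was above every WT library in THY1+ uSPG and below every WT library in KIT+ dSPG. How many of all genes share this pattern is not given here. Germ cell genes outside the 32 moved the same way, with medians of 0.23 in uSPG and -0.29 in dSPG. Ddx4, the RNA helicase VASA, had 239, 214 and 256 FPKM in null uSPG against 178, 188 and 202 in WT, and 146, 109 and 134 in null dSPG against 159, 155 and 161 in WT. Its fitted interaction was -0.61 (limma adjusted p = 0.0944). Tdrd12, a Tudor domain helicase of secondary piRNA production, had 43.3, 39.0 and 48.4 FPKM against 33.1, 36.2 and 38.6 in uSPG, and 30.7, 21.9 and 26.7 against 31.8, 31.7 and 35.9 in dSPG. Its fitted interaction was -0.61 (adjusted p = 0.109). Neither interaction passed the threshold, and centred on germ cell genes they were -0.12 and -0.11.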

How the results depend on the processing

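Over all alternatives, 312 counts and medians over the genes stayed close to their reported value, 30 moved and 4 changed sign by at least the spread of the median between replicates. Smaller changes of sign were not counted among the 4, and the median for labels THY1+ ran from -0.026 to 0.099 when 1 library was left out. Of the values of named genes 263 kept their side of the threshold, 18 passed it newly and 12 no longer passed, with none reversed. Centring each library on germ cell genes moved most. It gave 1 call and a median of 0.14 for null against WT in THY1+, 0 calls and a median of 0.14 (sign changed) in KIT+, a median of -0.058 for the interaction, and 8 calls with a median of -0.32 between the null fractions. Over all genes the same 4 comparisons had 1.33%, 0.215%, 0% and 36.8% called, with medians of -0.25, 0.28, 0.50 and 0.41. In the Sox3 set the centring gave 2 calls and 0.028 (sign changed) for the averaged effect, against 29.1% of all genes called and a median over all genes of 0.40. Between the cKO fractions it gave 4 and -0.15, against 27.9% and 0.28. For labels THY1+ it gave 8 and 0.25, against 30.4% and 0.26, and for labels KIT+ 3 and -0.14, against 40.5% and 0.47. For cKO THY1+ against WT labelled KIT+ the median was 0.034 (sign changed), against 0.23 over all genes. For cKO KIT+ against WT labelled THY1+ it gave 2 and 0.014 (sign changed), against 39.5% and 0.54. Centring on the median of all genes gave 2 calls for the averaged Sox3 effect. The 6 KIT+ libraries alone gave 0 calls for genotype. Replicates 2 and 3 alone gave 0 calls for the averaged Sox3 effect and 2 for cKO KIT+ against WT labelled THY1+. Leaving out 1 library gave 0 to 12 calls for the interaction (12 without null KIT+ replicate 1), 1 to 3 for the averaged Sox3 effect, 3 to 5 between WT libraries as labelled (5 without WT replicate 3 labelled THY1+), and a median from -0.51 to -0.30 for cKO KIT+ against WT labelled THY1+. The averaged Sox3 count was 2 or 3 without WT replicate 1 or 2 labelled THY1+, WT replicate 3 labelled KIT+, cKO THY1+ replicate 1 or 3, or any cKO KIT+ replicate. For centring on the median, replicates 2 and 3 alone and fits without 1 library, the share of all genes called is not given here. Those counts are therefore not set against a background. The cause of the changes between fits was not tested.

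With the replicate block, 13 of the 32 genes were called lower in the interaction, among 2756 genes. Its replicate numbers share only a number by the check used (16 of 18 pairs over 0.1, lowest -0.028), as do those of the Sox3 comparisons other than cKO THY1+ against WT labelled KIT+ (12 of 18 pairs of the whole set over 0.1, lowest -0.119), although replicate 1 of every Sox3 group was also the deepest. In the comparisons taken as paired the block changed the call of Tdrd6 in THY1+ and of no other of the 32 genes. Depth limits Tdrd6 and Gtsf1l most, both below 1 FPKM, and the shallower replicates 2 and 3 of the Sox3 set.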
